A study of Mus musculus with 6 samples.

Results

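C-type lectin receptors are cell surface proteins of myeloid cells that carry a carbohydrate-recognition fold, and the 10 genes described here, Clec10a, Clec4a1, Clec4a2, Clec4a3, Clec4d, Clec4e, Clec4n, Clec5a, Clec7a and Clec12a, were taken by name from the 27263 genes of the series. RNA was sequenced from primary bone marrow stromal cells of C57BL/6 mice, selected by flow cytometry for Sca-1 and CD29 and against CD45 and CD11b, and then kept in α-MEM with 10% fetal bovine serum. One group of 3 libraries received rGCA at 50 nM for 3 days and the other group of 3 received PBS, the vehicle, for the same time. From knowledge of the study rather than from its labels, GCA stands for grancalcin, which binds calcium and is made by myeloid cells. Whether the replicates came from different animals or cultures is not in the labels, so p-values reflect no more than the spread among the 6 libraries, which may be technical.

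The receptors differ in how they signal. Clec4d (MCL), Clec4e (Mincle) and Clec4n (Dectin-2) rely on the FcRγ chain, the product of Fcer1g, and Clec5a (MDL-1) on the adaptors DAP12 (Tyrobp) and DAP10 (Hcst). These adaptors recruit the kinase Syk, and Clec7a (Dectin-1, a receptor for fungal β-glucan) does so through its own tail. Syk then acts through Card9, Bcl10 and Malt1 on NF-κB and so on cytokine genes. Clec4a2 (DCIR) and Clec12a carry an inhibitory tyrosine motif that recruits phosphatases such as SHP-1 (Ptpn6), and Clec10a (MGL1) binds galactose and N-acetylgalactosamine.

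Levels are given as FPKM, the fragments of a gene scaled by its exon length and by the fragments of the library, so levels of different genes can be set side by side. The fragments behind the 10 genes ran from 109 for Clec7a in GCA replicate 2 to 9134 for Clec4d in PBS replicate 1. The library totals by which the values had been scaled were 17543509 to 18645932. All 10 genes averaged 1 FPKM or more across the libraries, the filter for testing. Log2 fold changes are GCA minus PBS on log2(FPKM + 1), which understates the change of low genes. A gene was called where the limma p-value, adjusted by the Benjamini-Hochberg method over the 11984 tested genes, was under 0.05.

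The gate was for CD45− CD11b− cells, yet macrophage transcripts were present in every library. Of the 16 genes of a macrophage marker list, all 16 were tested, 8 rose with GCA, 1 fell (Lyz2) and 7 did not pass. Over all 11984 tested genes, 11.5% were called higher and 6.43% lower, which also serves the lists below. The 16 genes summed to 17812 to 19840 FPKM in PBS and 15088 to 16422 in GCA. Without Lyz2, the lysozyme gene, they summed to 5187 to 5681 and 6731 to 7148. Among those that rose, Laptm5, Cd68 and the complement gene C1qb had log2 fold changes of 0.40, 0.61 and 0.38 (adjusted p = 0.00127, 0.00221 and 0.00715, limma), and Lyz2 fell by 0.61 on the log2 scale (adjusted p = 0.00241). After quantile normalization 7 of the 16 were higher and 0 lower. C1qb was then at 0.08 and Lyz2 at −0.11, and neither passed (adjusted p = 0.368 and 0.438), while Laptm5 and Cd68 still passed, at 0.43 and 0.51 (adjusted p = 0.00165 and 0.00223). Quantile normalization gives every library the same set of values, so it leaves little room for change in the most abundant genes. After median centring 8 were higher and 1 lower, with C1qb at 0.36 and Lyz2 at −0.62 (adjusted p = 0.0099 and 0.00346, limma). Ptprc, which encodes CD45, stood at 12.0 to 13.2 FPKM in PBS and 12.9 to 14.5 in GCA. Itgam, which encodes CD11b, stood at 36.7 to 43.1 FPKM in PBS and 24.9 to 40.9 in GCA. In bulk RNA, fewer cells of a type and less RNA per cell cannot be told apart. The monocyte list summed to 540.1 to 569.6 FPKM in PBS and 403.5 to 425.6 in GCA. The dendritic cell list summed to 2.68 to 4.19 FPKM over the 6 libraries and the neutrophil list to 21.7 to 31.8, with Ly6g, a defining neutrophil gene, at 0 in 5 of the 6. Of the neutrophil genes Csf3r alone passed, with a rise of 0.52 (adjusted p = 0.0266, limma) that was lost without PBS replicate 2 or 3 or GCA replicate 1 or 2 (adjusted p = 0.0707 to 0.087). The mast cell and basophil list summed to 4.14 to 5.98 FPKM in PBS and 1.6 to 2.15 in GCA, and its 1 tested gene, Mcpt8, fell by 1.16 on the log2 scale (adjusted p = 0.00191, limma). Stromal markers, which define the labelled cells, were present in every library at 2883 to 3128 FPKM in PBS and 2506 to 2702 in GCA, and of 10 tested 0 rose, 3 fell and 7 did not pass (0 higher and 5 lower at an unadjusted limma p under 0.05). The 3 were Col3a1, Pdgfrb and Col1a2, at −0.51, −0.40 and −0.26 (adjusted p = 0.00361, 0.00847 and 0.0289, limma), and the call of Col1a2 was lost without PBS replicate 2 or any 1 of the GCA libraries (adjusted p = 0.0529 to 0.0905). Within GCA, replicate 2 stood apart in the average over genes, and less so in the median. Set against replicates 1 and 3 by their fragments, it gave an average chi-square of 16.74 and 26.61 over genes, and those 2 against each other gave 9.14. The medians were 1.55 and 1.81 against 1.22, and pairs of PBS libraries had medians of 0.97 to 1.51.

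With GCA, 2 of the 10 receptors rose, Clec10a and Clec4a3, 3 fell, Clec4d, Clec4n and Clec5a, and 5 did not pass. The 5 called genes compare with 17.9% of all tested genes called, 11.5% higher and 6.43% lower. After quantile normalization the calls over all genes split into 1198 higher and 1027 lower, against 1380 and 771 here. The median log2 fold change of the 10 receptors was −0.25, beside 0.006 over all tested genes. Groups did not overlap for 6 receptors, the 5 called genes and Clec7a, beside 38.5% of all tested genes. Of the 6, 2 were higher and 4 lower with GCA, beside 21.6% and 16.8% of all tested genes. Since the receptors were chosen with earlier results known, these shares describe them and test nothing.

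**Figure D1:**
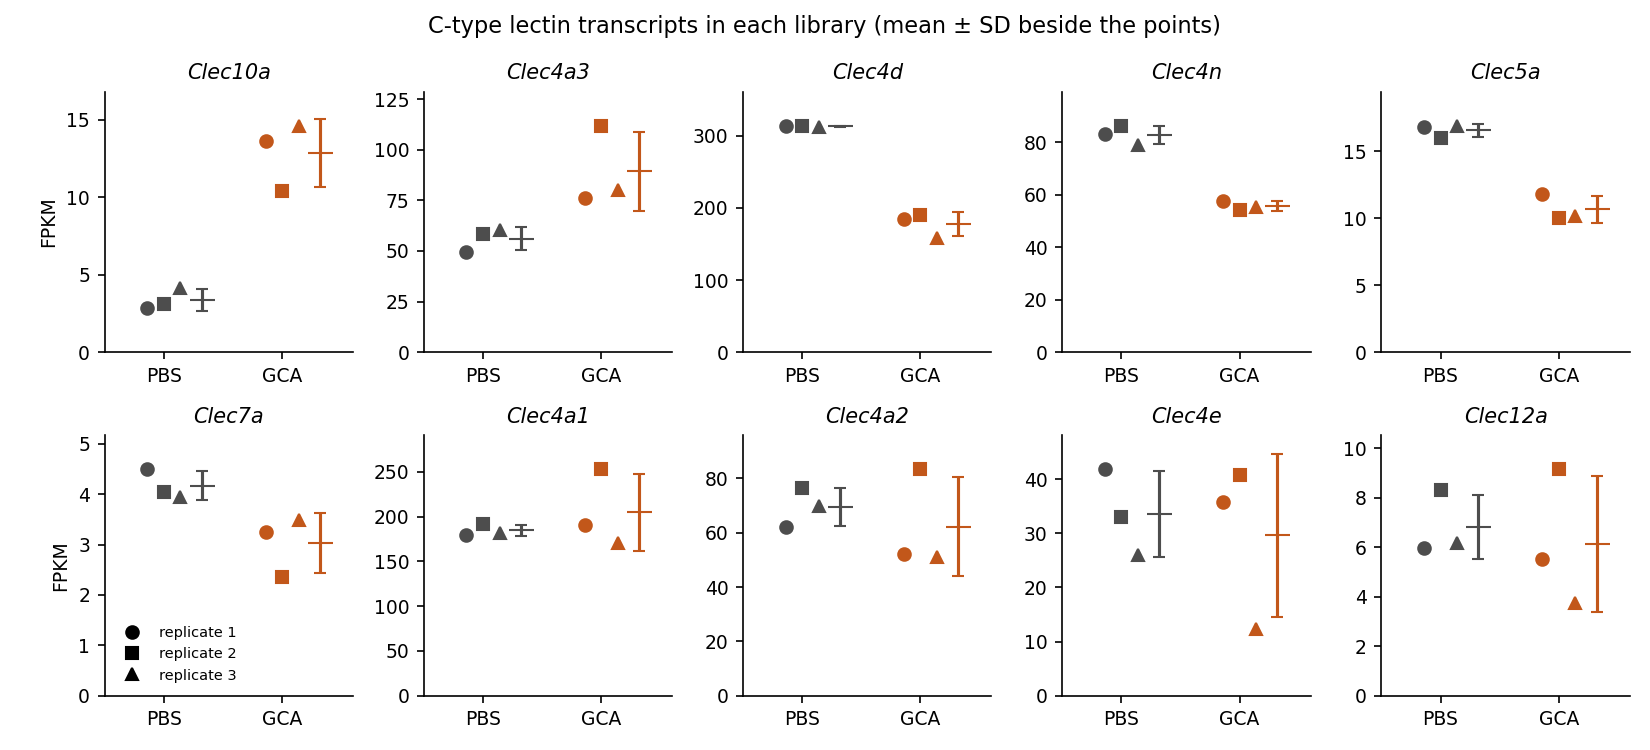
FPKM of the 10 C-type lectin genes in each library (points, with replicates 1 to 3 as circle, square and triangle), with the group mean ± SD beside the points; each panel has its own vertical axis from 0. The 3 GCA libraries lie above the 3 PBS libraries for Clec10a and Clec4a3 and below them for Clec4d, Clec4n, Clec5a and Clec7a.

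Clec10a (ENSMUSG00000000318, GRCm38 chromosome 11, 70156197 to 70170834) is the galactose-type receptor of the group and is used as a marker of some macrophages and dendritic cells. It was at 2.82, 3.10 and 4.16 FPKM in PBS replicates 1 to 3 and at 13.6, 10.4 and 14.6 in GCA replicates 1 to 3. Every GCA library was above every PBS library, and the lowest GCA value was replicate 2. The ratio of group means was 3.83, and the rise of 1.67 on the log2 scale (SE 0.152) had an adjusted p of 0.00109 (limma). Part of the gene resembles its neighbour in sequence, Mgl2, which encodes a second galactose-type receptor. Of the 3331 different stretches of 75 bases in Clec10a transcripts, 4.44% also occur in Mgl2 transcripts. Mgl2 was at 0 in all 3 PBS libraries and at 0.214, 0.0817 and 0.0768 FPKM in GCA, so no fold is given for it. The dendritic cell markers, listed above, and the macrophage markers, of which 8 of 16 rose, are the measured levels beside the rise of Clec10a, and their part in it was not tested.

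The promoter sequences of 4 receptors of chromosome 6 are shown because these genes lie within 1 gene family and moved differently: Clec4d and Clec5a fell, Clec4a3 rose and Clec4e did not pass. Each is the 250 bases before a RefSeq transcription start (GRCm38.p6), read on the strand of the gene, 5′ to 3′. Capitals mark every match, on either strand, to GAGGAA (PU.1, the macrophage lineage factor), TTGCNNAA (C/EBP), TGANTCA (AP-1) or GGG and CC with any 5 bases between them (NF-κB).
Clec4d, chr6:123261857-123262106, + strand: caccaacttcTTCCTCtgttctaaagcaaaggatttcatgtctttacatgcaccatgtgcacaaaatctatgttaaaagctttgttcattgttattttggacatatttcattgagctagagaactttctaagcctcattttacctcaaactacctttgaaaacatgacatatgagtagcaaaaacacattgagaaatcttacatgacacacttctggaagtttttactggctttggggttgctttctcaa
Clec5a, chr6:40585806-40586055, − strand: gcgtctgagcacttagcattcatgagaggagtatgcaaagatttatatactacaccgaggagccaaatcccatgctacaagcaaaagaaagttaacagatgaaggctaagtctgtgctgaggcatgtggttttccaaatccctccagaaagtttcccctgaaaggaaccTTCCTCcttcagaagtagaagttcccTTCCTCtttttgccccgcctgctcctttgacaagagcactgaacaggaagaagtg
Clec4a3, chr6:122952265-122952514, + strand: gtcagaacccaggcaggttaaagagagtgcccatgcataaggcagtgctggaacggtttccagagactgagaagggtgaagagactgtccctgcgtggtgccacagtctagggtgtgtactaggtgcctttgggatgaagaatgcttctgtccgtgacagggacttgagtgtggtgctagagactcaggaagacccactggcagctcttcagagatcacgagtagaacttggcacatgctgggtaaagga
Clec4e, chr6:123289872-123290121, − strand: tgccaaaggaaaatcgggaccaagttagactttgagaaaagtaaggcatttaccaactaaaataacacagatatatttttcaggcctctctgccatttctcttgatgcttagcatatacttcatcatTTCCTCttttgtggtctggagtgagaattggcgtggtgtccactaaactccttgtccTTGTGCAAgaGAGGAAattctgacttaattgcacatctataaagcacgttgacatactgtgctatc

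Promoter windows were found for 8 of the 10 receptors, 10 windows in all. GAGGAA stood in 8 of the 10 windows, which belong to 7 of the 8 genes, and 23.3% of all 32851 windows of that length hold it. The 2 windows of Clec7a overlap and share their match. Clec4e had 2 such matches and a TTGCNNAA match that begins 66 bases before the start, a motif held by 9.56% of all windows. Clec5a had 2 GAGGAA matches, which begin 81 and 55 bases before the start, and Clec4d 1, which begins 240 bases before it. The window of Clec4a3 printed above held none of the 4 motifs, and its second window, from a start further downstream, held 1 GAGGAA match. TGANTCA occurs in 6.75% and the NF-κB motif in 45.8% of all windows. Each stood in 1 of the 8 receptors, Clec12a and Clec4a1 in that order, and the matches to the NF-κB motif in Clec4a1 overlap each other. These letters describe the windows, and binding was not measured.

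Of the 4 receptors that signal through FcRγ or DAP12, 3 fell, Clec4d, Clec4n and Clec5a, and Clec4e did not pass. Clec4d (ENSMUSG00000030144, chromosome 6, 123262111 to 123275265), the partner of Mincle in sensing mycobacterial glycolipid, was the most abundant of the 10 in PBS. It was at 313.4, 313.5 and 311.5 FPKM in PBS and 184.7, 190.3 and 158.4 in GCA. The PBS libraries were nearly equal, and every GCA library was far below them. Clec4d fell by 0.82 on the log2 scale (SE 0.0698, adjusted p = 0.000448, limma), with a PBS mean 1.76 times the GCA mean.

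Clec4n (ENSMUSG00000023349, chromosome 6, 123229843 to 123247021), which binds fungal mannans, was at 83.1, 86.2 and 79.1 FPKM in PBS and at 57.6, 54.0 and 55.4 in GCA. Both groups were tight and did not overlap. Clec4n fell by 0.56 on the log2 scale (SE 0.05, adjusted p = 0.000503, limma). Clec5a (ENSMUSG00000029915, chromosome 6, 40574894 to 40585821), an activating receptor of monocytes and macrophages, was at 16.8, 16.0 and 16.9 FPKM in PBS and at 11.8, 9.99 and 10.2 in GCA. All 3 GCA values were again under all PBS values. Clec5a fell by 0.59 on the log2 scale (SE 0.0669, adjusted p = 0.00124, limma).

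Clec4e (ENSMUSG00000030142, chromosome 6, 123281789 to 123289870) encodes Mincle, a receptor for mycobacterial cord factor that macrophages induce on activation. It was at 41.8, 33.1 and 25.9 FPKM in PBS and at 35.7, 40.7 and 12.4 in GCA. The groups overlapped, and GCA replicate 3 was less than each of the other 5 libraries. The log2 fold change of −0.31 had a 95% confidence interval of −1.49 to 0.86 (adjusted p = 0.693, limma), so a change in either direction was not detectable at this spread. Without GCA replicate 3 it was 0.20, with an adjusted p of 0.548. The genes Cxcl2 and Tnf, named after their values were seen, were also lowest in GCA replicate 3, at 3.01 and 8.15 FPKM, where the lowest of the other 5 libraries had 7.24 and 19.3. Both encode inflammatory mediators induced by NF-κB. Other target genes of this signalling went either way. Cxcl1 was also lowest in GCA replicate 3, at 5.55 FPKM. Il1a, Il10 and Ptgs2 were not, at 2.45, 5.4 and 2.27 FPKM there, where their lowest values were 0.284, 4.15 and 1.71.

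Clec7a (ENSMUSG00000079293, chromosome 6, 129461591 to 129472779) was low, at 4.49, 4.05 and 3.95 FPKM in PBS and 3.25, 2.36 and 3.48 in GCA. The 3 GCA values were all under the PBS values, yet the difference of −0.37 (95% confidence interval −0.62 to −0.12) did not pass, with an adjusted p of 0.0537 (limma). It passed after quantile normalization, with 0.0375, and after median centring, with 0.0414. GENCODE M21 annotates this entry as a polymorphic pseudogene, and the sources used here do not say how that bore on counting.

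Of DCIR and its relatives, Clec4a3 rose, and Clec4a1 and Clec4a2 did not pass. Clec4a3 (ENSMUSG00000043832, chromosome 6, 122952515 to 122969875) was at 49.6, 58.4 and 60.4 FPKM in PBS and at 76.2, 111.8 and 80.3 in GCA. Each GCA value was above each PBS value, with replicate 2 the highest. The ratio of means was 1.59 and the log2 fold change 0.65 (SE 0.158, adjusted p = 0.0393, limma). That call was lost on leaving out PBS replicate 1, 2 or 3 or GCA replicate 3, with adjusted p-values of 0.1, 0.0876, 0.0843 and 0.0604, and without the filter, with 0.0819. Without GCA replicate 2 the log2 fold change was 0.48, with an adjusted p of 0.0113.

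Clec4a1 (ENSMUSG00000049037, chromosome 6, 122921848 to 122934619) was at 179.9, 191.6 and 181.8 FPKM in PBS and at 190.6, 252.6 and 170.9 in GCA. Clec4a2 (ENSMUSG00000030148, chromosome 6, 123106428 to 123143999), the inhibitory DCIR, was at 62.2, 76.4 and 69.9 FPKM in PBS and at 52.3, 83.3 and 51.0 in GCA. In both genes GCA replicate 2 was the highest of the 6 libraries and the groups overlapped. Their log2 fold changes were 0.13 (95% confidence interval −0.20 to 0.46, adjusted p = 0.552) and −0.19 (−0.71 to 0.33, adjusted p = 0.578, limma). Without GCA replicate 2 that of Clec4a2 was −0.42 and passed, with an adjusted p of 0.0161. Without the same library, that of Clec4a1 was −0.03 (adjusted p = 0.782). Of the transcript stretches of Clec4a2, 2.98% also occur in Clec4a4, which peaked at 1.10 FPKM.

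Clec12a (ENSMUSG00000053063, chromosome 6, 129342691 to 129365303), an inhibitory receptor for uric acid crystals, was at 5.99, 8.32 and 6.17 FPKM in PBS and at 5.53, 9.15 and 3.76 in GCA. The highest and the lowest of the 6 values were both in GCA, so the groups overlapped fully. Its log2 fold change was −0.19 (95% confidence interval −0.92 to 0.54, adjusted p = 0.705, limma), and 0.07 without GCA replicate 3 (adjusted p = 0.869).

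**Figure D2:**
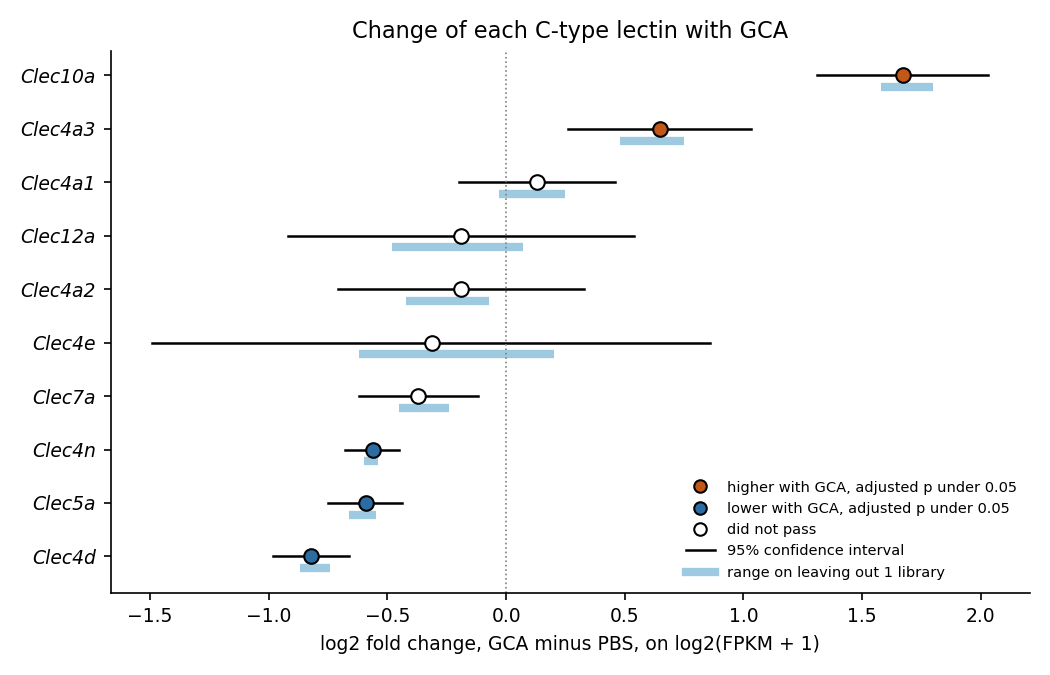
Log2 fold change of each C-type lectin, GCA minus PBS on log2(FPKM + 1) (points, coloured where the adjusted p was under 0.05), with its 95% confidence interval (black line) and the range over the 6 fits that leave out 1 library each (blue bar). Clec10a at 1.67 is farthest to the right and Clec4d at −0.82 farthest to the left, and the interval of Clec4e, −1.49 to 0.86, is the widest.

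GCA replicate 2 held the highest GCA value of 6 receptors and the lowest of 4. The 6 were Clec4a1, Clec4a2, Clec4a3, Clec4d, Clec4e and Clec12a. Adgre1 and Itgam, macrophage markers named after their values were seen, were also highest of the GCA libraries in replicate 2, with 256.1, 419.9 and 224.0 FPKM and 24.9, 40.9 and 25.7 FPKM in GCA replicates 1 to 3. Their log2 fold changes, −0.29 and −0.39, did not pass with all libraries (adjusted p = 0.452 and 0.244, limma). Without GCA replicate 2 they were −0.56 and −0.61 and passed, with adjusted p-values of 0.00436 and 0.00185. Other genes of the macrophage list did not share this pattern. Cd68, Laptm5 and C1qb were lowest of the GCA libraries in replicate 2, at 827.4, 290.0 and 1665 FPKM.

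The order of the receptors by level differed between the groups. In PBS it ran from Clec4d over Clec4a1, Clec4n, Clec4a2, Clec4a3, Clec4e, Clec5a, Clec12a and Clec7a to Clec10a, and only the ranges of Clec7a and Clec10a overlapped among neighbours. In GCA Clec4a1 stood first and Clec4d after it, with overlapping ranges of 170.9 to 252.6 and 158.4 to 190.3 FPKM. Clec10a stood seventh in GCA, where its range overlapped those of both its neighbours, Clec4e and Clec5a. Summed over the 10 genes, the level was 759.6 to 790.8 FPKM in PBS and 560.4 to 764.6 in GCA. Clec4d made up 39.6% to 41.2% of that sum in PBS and 24.9% to 29.3% in GCA. Clec4a1 made up 23.7% to 24.2% and 30.2% to 33.0%, and Clec4a3 6.53% to 7.95% and 12.1% to 14.6%. The level of Clec4a1 itself did not pass (log2 0.13, adjusted p = 0.552, limma). A share also grows where another gene of the sum, such as Clec4d, falls.

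**Figure D3:**
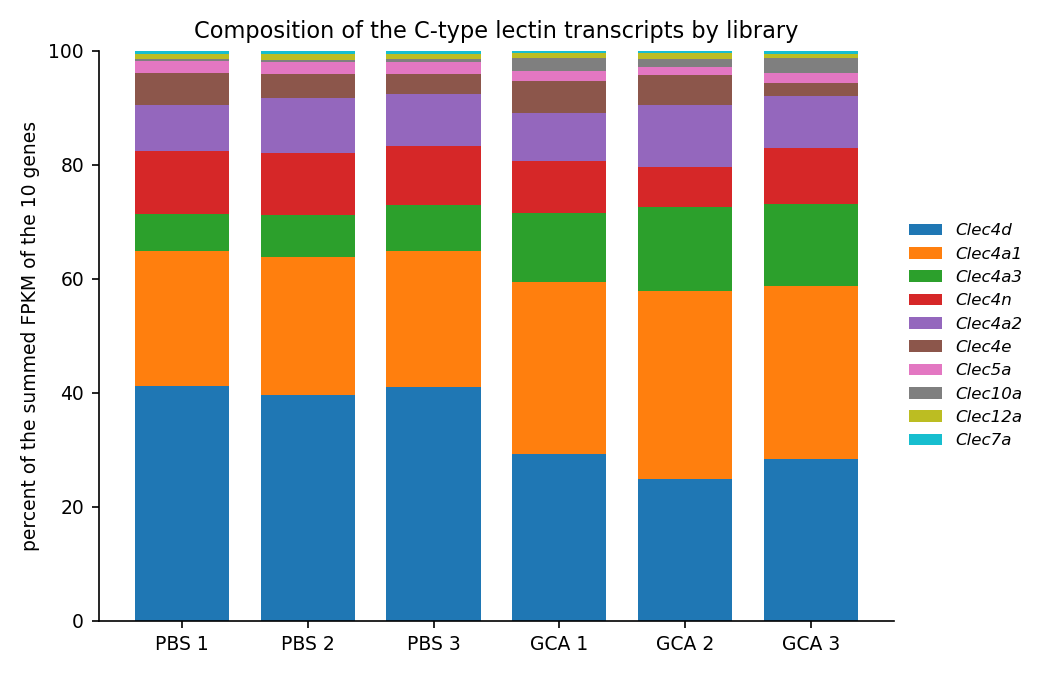
Percent of the summed FPKM of the 10 C-type lectins that each gene contributes, by library (stacked bars). The Clec4d share is 39.6% to 41.2% in the 3 PBS libraries and 24.9% to 29.3% in the 3 GCA libraries, with larger Clec4a1 and Clec4a3 shares in GCA. The level of Clec4a1 itself did not pass.

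A ratio of 2 receptors within a library does not depend on how the libraries were scaled. Of 6 ratios chosen for this, 5 could be formed, and with 3 libraries against 3 the exact permutation test cannot go below p = 0.1. Clec4a2 to Clec4a3 was 1.25, 1.31 and 1.16 in PBS and 0.687, 0.745 and 0.635 in GCA, a log2 difference of −0.85 (exact permutation p = 0.1, adjusted 0.167, two-sided). GCA replicate 2, the highest library in each of these genes, lay with the other GCA libraries in this ratio. Clec4a1 to Clec4a3 was 3.63, 3.28 and 3.01 in PBS and 2.50, 2.26 and 2.13 in GCA, a log2 difference of −0.52 with the same p-values by the exact permutation test.
Clec4d to Clec4e was 7.50, 9.47 and 12.0 in PBS and 5.18, 4.67 and 12.8 in GCA, with overlapping groups (exact permutation p = 0.4, adjusted 0.5). Clec4n to Clec7a was 18.5, 21.3 and 20.0 in PBS and 17.7, 22.9 and 15.9 in GCA (exact permutation p = 0.6, adjusted 0.6), and the groups overlapped.

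Of the receptors, 6 lie in 1 cluster of 368.0 kb on chromosome 6, from Clec4a1 to Clec4e. Clec4n and Clec4d, which both fell, are neighbours with 15.1 kb between them. Clec4e, which did not pass, lies on the other strand, with its 3′ end 6.5 kb beyond Clec4d. At the far end, Clec4a3, which rose, lies 17.9 kb from Clec4a1, which did not pass. The other lectin genes of the cluster, Clec4a4, Clec4b1 and Clec4b2, had highest values of 1.10, 1.16 and 0.137 FPKM in any library and were not tested, nor were the predicted genes Gm44132 and Gm44147, with at most 1.51 and 0.596 FPKM. Clec12a and Clec7a lie in a second group of lectin genes on the same chromosome, where Clec12b, Clec1b, Clec9a and Clec1a between them reached at most 0.106 FPKM.

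**Figure D4:**
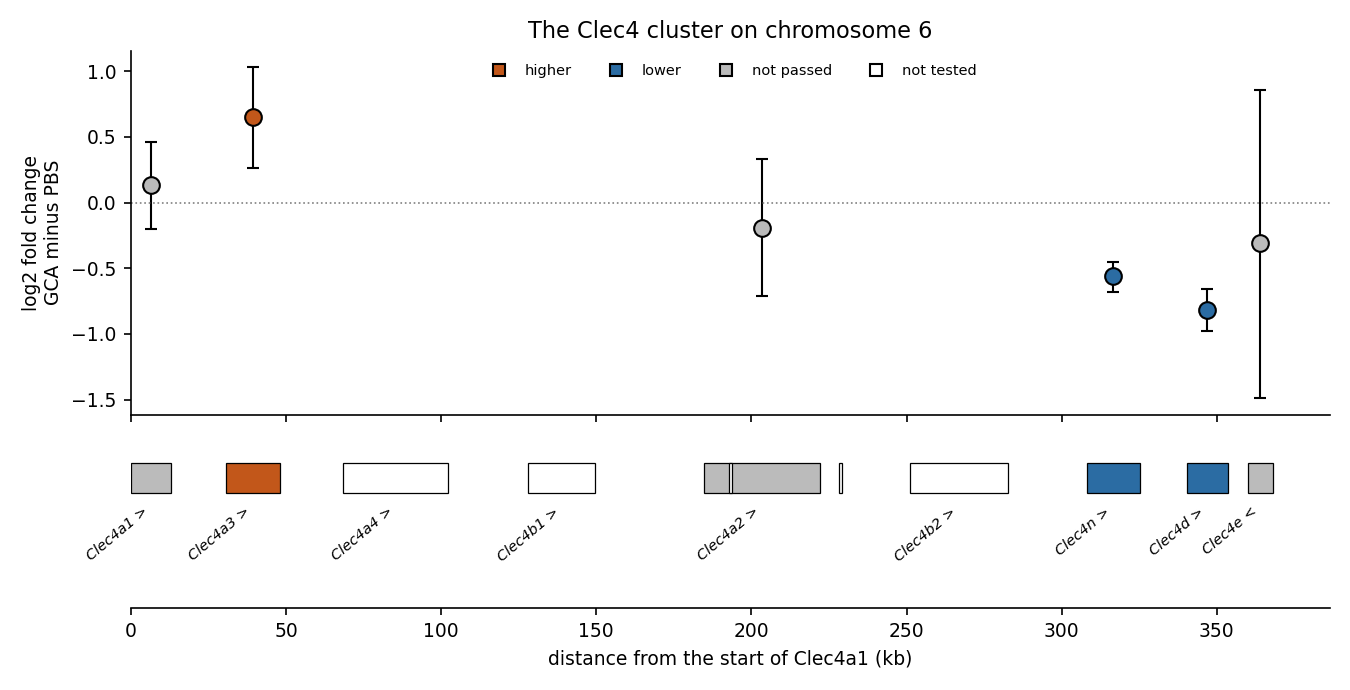
Map of the Clec4 cluster on chromosome 6, with distance from the start of Clec4a1 in kb (boxes are genes to scale, > and < beside a name give the strand) and, above, the log2 fold change of each tested gene with its 95% confidence interval. Clec4a3 near the left end is at 0.65, and the neighbours Clec4n and Clec4d near the right end are at −0.56 and −0.82.

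Over the 29 genes of adaptors, kinases, effectors and phosphatases that carry the signal of these receptors, 5 rose, 0 fell and 24 did not pass. Their median log2 fold change was 0.02. At an unadjusted limma p under 0.05, 9 were higher and 2 lower. The share called in all tested genes was 17.9%. With other settings up to 3 of the 29 fell, and the counts of falls are given in the closing section. Among the 3 adaptors, Fcer1g was at 412.7, 453.3 and 456.3 FPKM in PBS and at 500.3, 581.8 and 509.6 in GCA, all above PBS. Its rise of 0.27 log2 units (SE 0.0712, adjusted p = 0.0368, limma) was lost on leaving out any 1 of the 6 libraries (adjusted p = 0.0523 to 0.0991) and after median centring (0.0571), without trend and robust options (0.0576) and with lower or no filter (0.0695 and 0.115). Tyrobp, at 439.0 to 507.5 FPKM in PBS and 463.1 to 488.1 in GCA, had a log2 fold change of 0.02 and did not pass (adjusted p = 0.876). Hcst rose from 2.36, 2.97 and 3.96 to 5.04, 6.00 and 5.35 FPKM (log2 0.67, adjusted p = 0.0154, limma), and its adjusted p was 0.0583 without PBS replicate 2 and 0.0615 without the filter. The ratio of Tyrobp to Fcer1g was 1.03 to 1.12 in PBS and 0.839 to 0.964 in GCA (exact permutation p = 0.1, adjusted 0.167).

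Of the 21 kinases and effectors, 3 rose: Blnk, a scaffold protein, Nfatc2 and Nfatc1, both calcium-regulated transcription factors. Over all tested genes 11.5% were called higher. Blnk went from 3.66, 4.12 and 3.39 to 7.45, 5.39 and 6.28 FPKM (log2 0.64, adjusted p = 0.00675, limma). Nfatc2 went from 6.34, 6.61 and 6.72 to 8.77, 8.94 and 8.38 FPKM (log2 0.36, adjusted p = 0.00325). Nfatc1 rose by 0.23 (adjusted p = 0.0215), which was 0.0506 to 0.0659 without PBS replicate 1, 2 or 3 or GCA replicate 1 or 2, and 0.0625 without the filter. None of the 5 phosphatase-related genes passed, Ptpn6 among them, and at an unadjusted limma p under 0.05 1 was higher and 1 lower.

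Of 16 target genes of this signalling, 9 were tested and 1 rose, Il1a, an alarmin cytokine. The share called higher in all tested genes was 11.5%. Il1a was at 0.333, 0.642 and 0.284 FPKM in PBS and 4.26, 2.83 and 2.45 in GCA, a rise of 1.54 on the log2 scale (SE 0.169, adjusted p = 0.00132, limma). The median of the 9 was −0.19. Among 5 tested genes for endogenous ligands, Lgals9, which encodes galectin-9, a ligand of Dectin-1, rose from 113.8, 123.0 and 114.7 to 173.8, 148.3 and 163.3 FPKM (log2 0.46, adjusted p = 0.00316). The other 4 did not pass, and the median of the 5 was 0.01.

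Among 47 further genes with a C-type lectin domain that were analysed, 33 were below the filter and 14 were tested. Of these 2 rose, 3 fell and 9 did not pass, beside 11.5% higher and 6.43% lower of all tested genes. The median log2 fold change of the 14 was 0.01. Mrc1, the mannose receptor of macrophages, rose from 239.8, 271.5 and 257.2 to 383.3, 364.1 and 456.2 FPKM (log2 0.64, SE 0.0887, adjusted p = 0.00311, limma), and Cd93 from 52.7, 55.9 and 53.2 to 69.1, 63.4 and 69.4 (log2 0.31, adjusted p = 0.0063). Colec12, a scavenger receptor of stromal and endothelial cells, fell from 124.5, 121.9 and 130.3 to 82.8, 78.9 and 86.4 FPKM (log2 −0.60, adjusted p = 0.000448). Cd72, an inhibitory receptor of B cells that macrophages also express, fell from 9.81, 10.1 and 11.1 to 5.33, 6.51 and 5.28 FPKM (log2 −0.76, adjusted p = 0.00109). Mrc2, named after its values were seen, fell by 0.24 on the log2 scale (adjusted p = 0.0110).

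**Figure D5:**
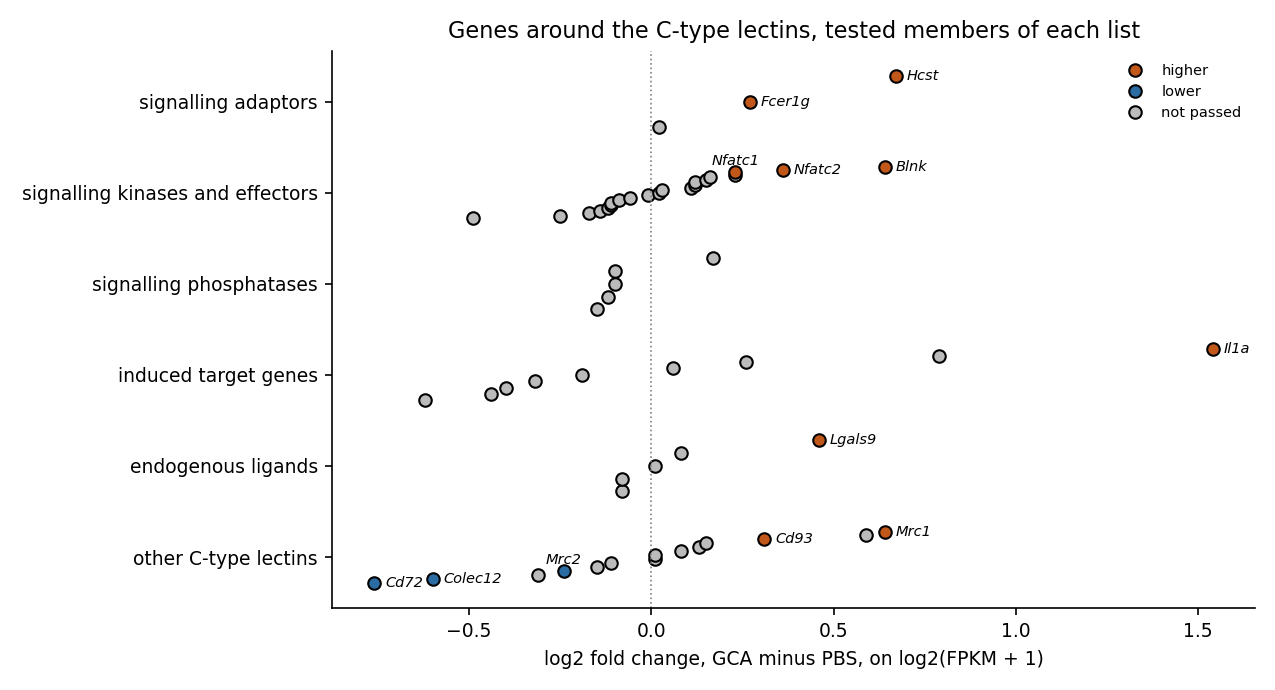
Log2 fold change, GCA minus PBS on log2(FPKM + 1), of each tested gene in 6 lists of genes around the C-type lectins (1 point per gene, coloured where the adjusted p was under 0.05, with those genes named). Most points lie near 0, Il1a at 1.54 is farthest to the right, and falls past the threshold appear in the list of other C-type lectins alone.

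Clec10a and Clec7a are known to be induced by interleukin-4 in macrophages, and genes of that response were set beside them. Of 4 tested, Il4ra, the receptor chain, rose from 40.3, 46.2 and 44.1 to 57.9, 67.0 and 64.4 FPKM (log2 0.52, adjusted p = 0.00263, limma). Chil3 fell by 1.44 on the log2 scale (adjusted p = 0.000549) and Arg1, the arginase gene, by 1.18 (adjusted p = 0.00831). Socs1, the remaining tested gene, did not pass (log2 0.29, adjusted p = 0.336, limma). Over all tested genes 11.5% were called higher and 6.43% lower. The monocyte list had 4 tested genes, of which F13a1, Plac8 and Vcan fell, by 0.35, 0.69 and 0.36 on the log2 scale (adjusted p = 0.00229, 0.00759 and 0.0148, limma). Spn, also tested, did not pass (log2 −0.05, adjusted p = 0.84, limma). Ccr2, a defining gene of blood monocytes, was at or under 0.083 FPKM in every library. Ly6c2, Cx3cr1 and Treml4 were below the filter, with at most 0.77, 1.05 and 0.248 FPKM. Without the filter Vcan did not pass (adjusted p = 0.0662). F13a1, Plac8 and Vcan fell beside Clec4d, Clec4n and Clec5a, and the part of monocytes in those falls was not tested.

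The genes most like each receptor over the 6 libraries were found by Pearson correlation of log2(FPKM + 1), as a description, since with 6 libraries in 2 groups many genes correlate highly. For Clec10a these were Mtcp1, Arrdc1 and Tmem86a (r = 0.998, 0.997 and 0.996). For Clec4a3 they were Brca1, Fcer1g and Tspan3 (r = 0.998, 0.997 and 0.997). For Clec4e they were Marcksl1, Rab3a and Cxcl2 (r = 0.989, 0.988 and 0.986), with Cxcl2 the chemokine described above.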

How the data were processed

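RNA from 6 libraries, 3 with PBS and 3 with GCA, was sequenced as 150 bp read pairs, per the labels. The authors deposited 1 value per gene and library in FPKM. This unit was read from the values: times the exon length in GENCODE M21 (GRCm38, matched by Ensembl ID), 92.8% came out as whole fragments, within 0.02, over 1 total per library (17543509 to 18645932). The submitters' processing notes name Bowtie (version 0.12.2) and, as builds, mm8 with mm9. How fragments were counted, with which annotation and strand setting, was not given in the sources used here, so overlapping and antisense genes cannot be told apart. Coordinates are those of GENCODE M21, and promoter windows those of RefSeq on GRCm38.p6.

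Genes averaging 1 FPKM or more were tested on log2(FPKM + 1) with limma 3.58.1 (trend and robust options, R 4.3.3), with Benjamini-Hochberg adjustment over the 11984 tested genes. Ratios were tested with exact two-sided permutation tests (scipy 1.17.1). The ratio of Clec10a to Mgl2 was left out because Mgl2 was at 0 in PBS. The fit was tested on simulated data for this comparison, with 11810 genes and a dispersion of 0.01, where it called 73% of genes changed 1.5-fold, 93% of those changed 2-fold and 0.164% of unchanged genes. That dispersion was the same for every gene and both groups. These shares therefore do not hold for genes with a wider spread, such as Clec4e (SE 0.471).

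The receptors and the gene lists were chosen with earlier results of these data known. The text names all 10 receptors, the adaptors, the genes of the ratios, up to 4 tested genes per list with the smallest p, and for 3 receptors the 3 most correlated genes. Genes named beyond that rule, chosen after their values were seen, were Adgre1, Itgam, Tnf, Cxcl2, Ccl3, Ccl4, Nlrp3, Mrc2, Ptprc, Ptpn6, Ccr2, Ly6g and the genes neighbouring the receptors. The counts of marker lists on other scalings were added after seeing the data. Alternatives were a replicate block, quantile normalization, median centring, other pseudocounts, filters and thresholds, limma without trend or robust options, and leaving out each library.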

Additional observations from a re-analysis of the deposited data

How the results depend on the processing

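Clec10a kept its rise, and Clec4d, Clec4n and Clec5a their falls, past the threshold of 0.05 under every alternative run at that threshold. Without the filter 1075 genes passed and at a threshold of 0.01 837 did, against 2151. Leaving out 1 library each gave 1232 to 2088 genes; the lowest counts were 1232 and 1308, with PBS replicate 3 or 2 left out, and 1375, with GCA replicate 1 left out. Of the receptors, 1 was higher without the filter and 1 at 0.01, against 2, and leaving out 1 library gave 1 to 2 higher and 3 to 4 lower. Of the signalling genes, 2 were higher without the filter, 2 at 0.01 and 8 at a threshold of 0.1, against 5, with 2 to 6 on leaving out 1 library. Signalling genes called lower, 0 in the fit described, were 1 after quantile normalization, 1 after median centring, 1 with a filter of 5 FPKM, 1 at a threshold of 0.1 and 0 to 3 on leaving out 1 library. The direction turned for Clec4a1, to −0.03 without GCA replicate 2, for Clec4e, Clec12a and Cxcl2, to 0.20, 0.07 and 0.15 without GCA replicate 3, and for Tyrobp, to −0.03 without PBS replicate 1. None of these 5 genes passed in either fit, and the cause was not tested. Over all fits that leave out 1 library these 5 ranged from −0.03 to 0.25 for Clec4a1, −0.62 to 0.20 for Clec4e, −0.48 to 0.07 for Clec12a, −0.76 to 0.15 for Cxcl2 and −0.03 to 0.07 for Tyrobp. On leaving out 1 library, the log2 difference ranged from −0.95 to −0.22 for Clec4d to Clec4e, −0.24 to 0.02 for Clec4n to Clec7a, −0.59 to −0.46 for Clec4a1 to Clec4a3, −0.91 to −0.79 for Clec4a2 to Clec4a3 and −0.30 to −0.20 for Tyrobp to Fcer1g. Same-numbered libraries correlated at r = 0.082, 0.029 and 0.068 in their deviations from the group means, all under 0.1, although each correlated best with its own number, so the labels and this check do not establish a pairing. With the replicate block 2094 genes passed, and 2 receptors were higher and 4 lower, Clec7a among them. Limma-voom on fragments recovered from the FPKM had been planned and is not reported, since the deposited values are not counts. Among the 10 receptors, Clec7a and Clec10a had the fewest fragments in a library, 109 and 149, and of the other genes named Il1a had 10 to 23 and Hcst 31 to 51 in PBS.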
